A study of Mus musculus with 8 samples.

Results

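This account covers the genes that T cell samples of MRL/lpr mice expressed in kidney as well as in spleen, and how their levels differed between those organs when CD4+ and CD8+ cells were analysed together. A gene was included if its mean level was at least 50 over the 4 kidney libraries and at least 50 over the 4 spleen libraries. The deposited table holds 13341 gene symbols, of which 5838 met this rule, and all 5838 were among the 10845 genes tested. A level is the authors' normalised read count, that is, reads of a gene divided by 1 size factor per library, and it is not corrected for gene length.

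The mice were 14 weeks old and of the MRL/lpr strain, in which the lpr mutation disables the Fas death receptor and lupus-like nephritis follows, with T cells entering the kidney. All 4 groups shared this genotype and age, and no healthy strain entered the comparison. Cells high in surface CD44, a sign of earlier contact with antigen, were sorted as CD4+ or CD8+ from kidney and spleen, with 2 libraries for each of the 4 groups. The labels do not say whether a library came from 1 mouse or several, nor whether replicates came from separate mice, so the p-values measure only the spread between these libraries, which may be technical.

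T cells that recirculate through lymphoid organs carry receptors for sphingosine 1-phosphate and keep the transcription factor TCF1, encoded by Tcf7. T cells that settle in tissues lose much of this programme and take up another that includes Crem, whose products regulate genes that respond to cyclic AMP, along with adhesion molecules and chemokines. Cells short of oxygen stabilise hypoxia-inducible factor 1, which turns on genes such as Hilpda and Ndrg1, and the renal medulla is known for its low oxygen tension.

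Depth was 7477544 to 11169003 reads per library, and the sorted populations carried Cd3e and Ptprc in all 8 libraries. One library stood apart: kidney CD4+ replicate 2 lay over 2 log2 units below each of the other 7 libraries for 267 of the 5838 genes, against 0 to 47 genes for any other library. Replicates differed with an SD of 1.61 log2 units in kidney CD4+ cells, against 0.390 to 0.547 in the other groups, over 3184 genes with a mean level of at least 200. Cd3e, part of the CD3 signalling module, read 637 in that library and 4225 to 6826 in the others. The main limma tests below were also run without it. Other values, such as list medians, overlaps and summed levels of markers, used all 8 libraries unless stated. A fit without either kidney CD4+ library leaves 1 library in that group. Without replicate 1 the library left is the one that stood apart. RNA of other cells moved with the organ too. The summed level of 24 proximal tubule markers was 8774 to 32685 in kidney libraries and 125 to 720 in spleen libraries, where 16 of the markers, Miox and Fbp1 among them, had 0 reads. That of 14 neutrophil markers ran the other way, at 0 to 31.0 in kidney and 3789 to 9816 in spleen, and 8 of them, Ngp and S100a9 among them, had 0 reads in kidney.

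Most genes expressed in both organs did not pass the test. The organ difference was fitted on log2(level + 1) with limma, with cell type as a covariate, and a gene was called at a Benjamini-Hochberg adjusted p below 0.05 over all genes tested. Among the 5838 genes 71 were higher in kidney (1.22%) and 23 were lower (0.394%), against 2.83% and 0.636% of all 10845 genes tested. Outside the rule, among 5007 genes that were low or absent in at least 1 organ, 4.71% were higher and 0.919% lower. The rule thus held a smaller share of called genes than the rest of the table, and the rule itself limits how far a gene can differ. The called genes differed by a median of 3.30-fold when higher and 3.88-fold when lower, and the smallest differences called were 2.05-fold and 2.32-fold. In bulk samples such as these, a lower level in fewer cells and less RNA per cell cannot be told apart.

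**Figure D1:**
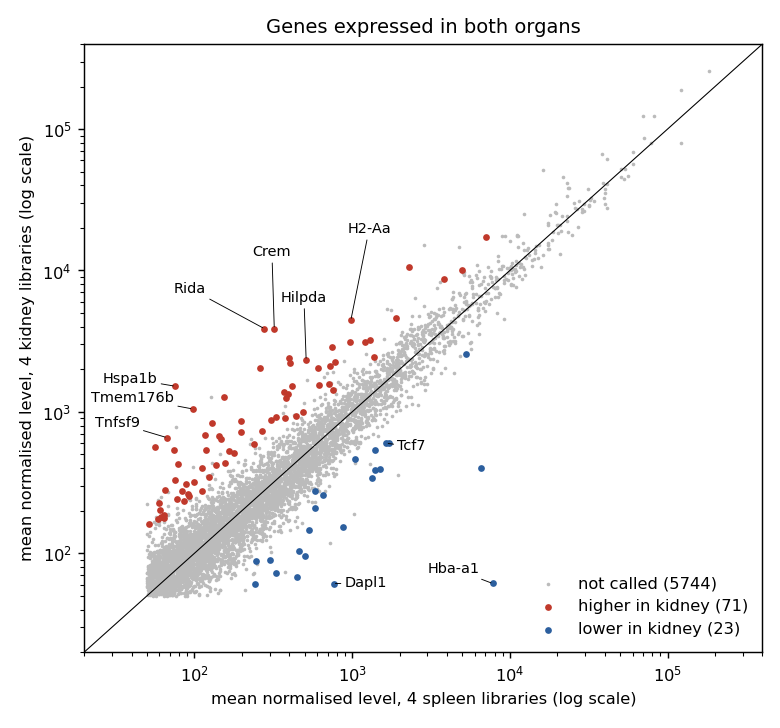
Mean normalised level over the 4 spleen libraries (x axis, log scale) against the mean over the 4 kidney libraries (y axis, log scale) for the 5838 genes expressed in both organs, with the line of equality. Red points are the 71 genes called higher in kidney, blue points the 23 called lower, and grey points the 5744 not called.

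Without kidney CD4+ replicate 2 the counts were 159 higher and 57 lower, and 69 of the 71 and 23 of the 23 genes were called again. Without replicate 1 of the same group they were 265 and 449, with 71 and 23 called again. Leaving out any 1 of the 6 kidney CD8+ and spleen libraries gave 22 to 34 higher and 6 to 10 lower. Whichever of the 8 libraries was left out, 20 higher and 5 lower genes kept the call. Among the 20 were Crem, Tmem176a, Tmem176b, Rida, Tnfsf9, C1qb, Fcer1g, Sord, Fah, Litaf, Vps37b, H2-Eb1, Dkkl1, Hilpda, Gabpb1, Tnfrsf1b, Dusp2, Rora and Odc1, and among the 5 were Hba-a1, the gene model Gm11346, Nsg2 and Jchain. A further 27 higher and 11 lower genes lost the call without any single one of those 6 libraries. The other called genes, 24 and 7, lost it without 1 to 5 of the 6. Some genes that did not pass with all libraries were called when 1 was left out. Cxcr6, Pdcd1, Nr4a1, S1pr1, Klf2, Klf3, Irf4, Gapdh, Cd44, Prf1 and Tmem159 were each called in only 1 of these 8 fits. Ifng, Usp18 and Prdx6 were each called in 2 of the 8.

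Crem had the smallest adjusted p among the genes that rose. Its levels were 4455 and 5593 in kidney CD4+ libraries and 1895 and 3592 in kidney CD8+ libraries, against 444 and 524 in spleen CD4+ and 149 and 166 in spleen CD8+ libraries. Every kidney library was above every spleen library, and CD4+ libraries were above CD8+ ones within each organ. The log2 fold change was 3.70 ± 0.28 (SE) with a limma adjusted p of 4.72e-05. Of 20 genes of the cyclic AMP pathway expressed in both organs, 2 rose, 0 fell and 18 did not pass, with a median log2 fold change of 0.32 against -0.08 over all 5838 genes. The second was Pde4d, a phosphodiesterase that breaks down cyclic AMP, with 261, 189, 284 and 286 in the 4 kidney libraries (CD4+ replicates 1 and 2, then CD8+ replicates 1 and 2, an order kept below) and 98.1, 104, 78.8 and 86.9 in the 4 spleen libraries. These values did not overlap (2.74-fold, adjusted p = 0.0196), but the call was lost without any 1 of the 6 kidney CD8+ and spleen libraries. Pde4b, a related phosphodiesterase, stood at a log2 difference of 0.63 ± 0.28 (adjusted p = 0.330). Pde2a, a phosphodiesterase outside the list, fell 3.27-fold, from 213, 184, 382 and 427 in spleen to 103, 51.0, 119 and 87.1 in kidney (adjusted p = 0.0153), and lost the call without kidney CD8+ replicate 2, spleen CD4+ replicate 1 or either spleen CD8+ library.

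Among hypoxia targets, Hilpda rose 4.45-fold, and no glycolytic enzyme on the same list passed with all 8 libraries. Hilpda, which encodes a lipid droplet protein, was at 1627, 2975, 2660 and 2066 in kidney and 531, 481, 550.1 and 482 in spleen. The 4 spleen values lay close together and the lowest kidney value was about 3 times the highest of them (log2 fold change 2.15 ± 0.26, adjusted p = 9.87e-04). Rora, a nuclear receptor that also serves type 17 helper cells, was at 320.0, 312, 344 and 261 in kidney and 86.5, 69.0, 108 and 87.9 in spleen (3.52-fold, adjusted p = 0.00449). Of 24 listed genes expressed in both organs these 2 rose, 0 fell and 22 did not pass, and the median log2 fold change of the list was 0.13. There were 4 rises and 0 falls without kidney CD4+ replicate 2, and 3 rises and 4 falls without replicate 1. Gapdh, which had the next smallest adjusted p, stood at a log2 difference of 0.67 ± 0.27 (adjusted p = 0.280). Gapdh was called higher without kidney CD4+ replicate 1 (0.84, adjusted p = 0.0249). Of 17 glycolysis genes 1 rose and 0 fell. There were 2 rises and 4 falls without kidney CD4+ replicate 1. The gene that rose with all libraries was Ldhb, a lactate dehydrogenase subunit, at 2235, 5516, 1037 and 2814 in kidney and 1143, 1339, 257 and 250.2 in spleen (4.36-fold, adjusted p = 0.0187), where kidney CD8+ replicate 1 was below both spleen CD4+ libraries. Its call was lost without spleen CD4+ replicate 1 or either spleen CD8+ library. Ldhb is also abundant in renal tubule cells, whose markers moved with the organ as given above, and the part of such RNA in its difference was not tested.

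Of 7 oxygen sensing genes expressed in both organs limma called 0 (1 at an unadjusted p below 0.05), edgeR 0 and DESeq2 0. Hif1a, the oxygen-regulated subunit of hypoxia-inducible factor 1, was at 662, 595, 132 and 167 in kidney and 367, 271, 136 and 73.5 in spleen (log2 fold change 0.78 ± 0.30, adjusted p = 0.254). In each cell type the kidney mean was above the spleen mean, yet kidney CD8+ replicate 1 was below spleen CD8+ replicate 1.

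The core letters of the hypoxia response element, ACGTG, were searched on both strands in the 250 bases before each RefSeq transcription start (build GRCm38.p6), because Hilpda and Rora were the 2 called hypoxia targets. The stretches that hold the match are shown with the match in capitals, CACGT being ACGTG on the other strand. For Hilpda 30 bases around the match are given (chr6:29272571-29272600, plus strand, 38 bases before the second of 2 listed starts), and for Rora the whole window (chr9:68653536-68653785, plus strand).
Hilpda: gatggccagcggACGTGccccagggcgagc
Rora: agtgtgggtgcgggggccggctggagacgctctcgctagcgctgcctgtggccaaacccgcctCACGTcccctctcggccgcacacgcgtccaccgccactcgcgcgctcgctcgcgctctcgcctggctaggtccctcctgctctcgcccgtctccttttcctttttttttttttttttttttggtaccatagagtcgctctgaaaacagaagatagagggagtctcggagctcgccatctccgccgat
The first listed start of Hilpda had no match in its window. Such a match is common: 18.5% of all 27025 genes in the table had one in at least 1 window, as did 27.3% of the 4561 matched genes expressed in both organs. It was found for 13 of the 54 matched genes among those higher in kidney and for 3 of the 16 among those lower. The share among higher genes, 24.1%, was below that of all genes expressed in both organs. A match describes the letters only and is not evidence of binding.

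Ndrg1 and Klf3, which had been proposed with Crem, Hilpda and Tmem176b as markers of this comparison, did not meet the expression rule. Ndrg1, a stress-response gene, was at 398, 1334, 629.8 and 900.4 in kidney but at 33.8, 34.5, 25.6 and 32.5 in spleen, under the threshold of 50. All 4 kidney values were more than 10 times the spleen ones (log2 fold change 4.52 ± 0.39, adjusted p = 1.21e-04). The summed level of 12 distal nephron markers was 1145, 9893, 1986 and 4786 in kidney libraries and 32.5 to 54.5 in spleen libraries. Ndrg1 ranked the 4 kidney libraries in the same order. The part of tubule RNA in the difference of Ndrg1 was not tested. Klf3, a repressor of lymphocyte trafficking genes, averaged below 50 in kidney, with 78.2, 62.4, 14.4 and 27.8 there and 88.1, 99.2, 152 and 203 in spleen. Its values did not overlap, but the difference did not pass (log2 fold change -1.74 ± 0.55, adjusted p = 0.152) and stood at -0.41 in CD4+ and -3.07 in CD8+ cells on the log2 scale. Klf3 was called lower without kidney CD4+ replicate 1 (-2.07, adjusted p = 0.0399).

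Tmem176a and Tmem176b rose together. The 2 genes encode related membrane proteins found in type 17 helper cells and in dendritic cells, and they lie side by side on chromosome 6 in opposite directions, at 48791482 to 48795363 on the plus strand and 48783810 to 48791373 on the minus strand (mm9). Tmem176b was at 1101, 1624, 799 and 675 in kidney and 156, 95.8, 50.5 and 86.9 in spleen (10.9-fold, log2 fold change 3.45 ± 0.30, adjusted p = 1.21e-04). Tmem176a was at 592, 1029, 243 and 394 in kidney and 112, 77.6, 9.43 and 25.8 in spleen (12.4-fold, adjusted p = 9.33e-04). Neither gene's kidney and spleen values overlapped. Both genes were higher in kidney CD4+ than in kidney CD8+ libraries, as were C1qb and the class II genes described below. The part of RNA from other cells in their differences was not tested. The type 17 list had 9 genes expressed in both organs, of which 4 rose, 0 fell and 5 did not pass, with a median log2 fold change of 1.66. The other rises were Rora and S100a4, a calcium-binding protein of migrating cells, at 1474, 2958, 2531 and 2005 in kidney and 1210, 1084, 420.2 and 397 in spleen (3.17-fold, adjusted p = 0.0327). S100a4 lost the call without any 1 of the 6 kidney CD8+ and spleen libraries. Irf4, a transcription factor of activated lymphocytes that belongs to the same list, stood at a log2 difference of 1.46 ± 0.35 (adjusted p = 0.0539), and was called without kidney CD4+ replicate 1 (adjusted p = 0.0250).

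**Figure D2:**
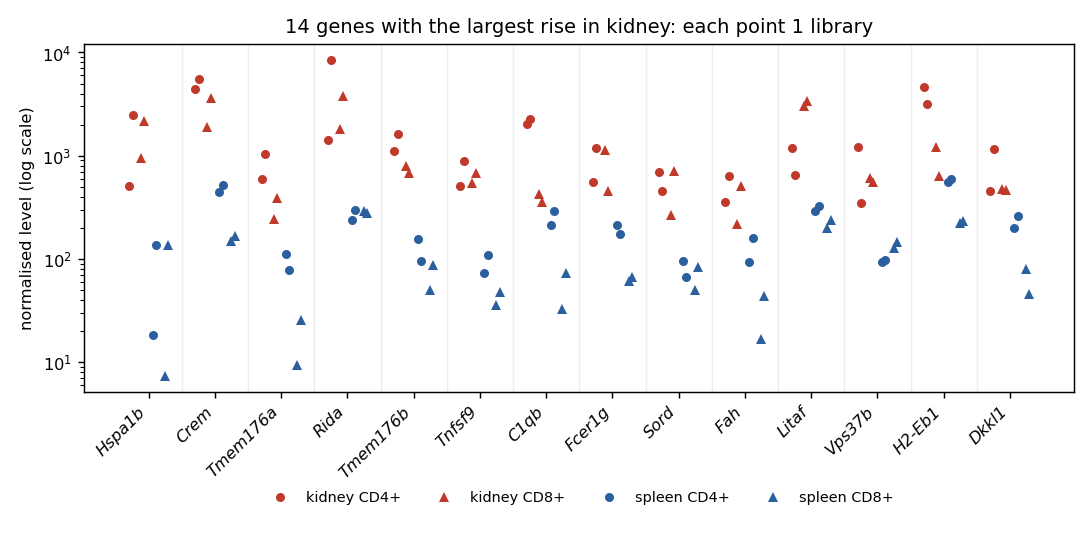
Normalised level (log scale) in each of the 8 libraries for the 14 genes with the largest rise in kidney among called genes whose organs did not overlap. Red symbols are kidney and blue symbols spleen libraries, circles CD4+ and triangles CD8+ cells. Each red symbol of a gene lies above each of its blue symbols.

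Genes of tissue residency gave the highest count of rises of the 21 lists, which differ in size. Of 29 expressed in both organs 8 rose, 0 fell and 21 did not pass, and the median log2 fold change was 1.21. The share called higher among all genes expressed in both organs was 1.22%. The smaller type 17 list had a larger share of rises, 4 of 9 genes, and a larger median, 1.66. Without kidney CD4+ replicate 2 there were 17 rises, without replicate 1 there were 10, with edgeR on recovered reads 7 and with DESeq2 16. Besides Crem the members with the smallest adjusted p were Vps37b and Litaf. Litaf, a regulator of cytokine genes and of endosomal sorting, was at 1188, 647, 3006 and 3393 in kidney and 289, 323, 199 and 238 in spleen (6.48-fold, adjusted p = 0.00753). It was highest in kidney CD8+ cells, whereas in spleen the CD8+ libraries were the lower ones. Vps37b, a subunit of the endosomal sorting complex ESCRT-I, was at 1224, 348, 606 and 555 in kidney and 93.7, 98.3, 127 and 147 in spleen (5.34-fold, adjusted p = 0.00574). The remaining rises were Ccl3, Isg20, Icos, Ldlrad4 and Rgs2. They are named here after their values were seen because they complete the count. Ccl3, a chemokine that attracts T cells and macrophages, read 3423, 8393, 19170 and 11627 in kidney and 1953, 2232, 2951 and 2051 in spleen (3.95-fold, adjusted p = 0.0166). Icos, a costimulatory receptor, read 8982, 4424, 2183 and 2843 in kidney and 2998, 3577, 476 and 586 in spleen (3.01-fold, adjusted p = 0.0302). Its kidney CD8+ values were below the spleen CD4+ ones, so the organs overlapped across cell types although not within either. Each of these 5 lost its call when single libraries were left out: Ccl3 without either kidney CD8+ or spleen CD8+ library or spleen CD4+ replicate 1, and the other 4 without any 1 of the 6 kidney CD8+ and spleen libraries.

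For 2 well known residency markers the kidney CD4+ replicates lay far apart, and the call depended on them. Cxcr6, the receptor for the chemokine CXCL16, read 25829, 1583, 15250 and 17708 in kidney and 2426, 2553, 2835 and 3678 in spleen (log2 fold change 1.85 ± 0.69, adjusted p = 0.238). Without kidney CD4+ replicate 2 Cxcr6 was called (log2 fold change 2.76, adjusted p = 1.01e-04), and without replicate 1 it was 1.15 and not called. The library that stood apart was the only kidney library below the spleen ones. Pdcd1, which encodes PD-1, showed the same layout, with 11103, 579.6, 5022 and 4567 in kidney and 2542, 2205, 906 and 1011 in spleen (log2 fold change 1.21 ± 0.78, adjusted p = 0.514). Pdcd1 too was called without kidney CD4+ replicate 2 (2.28, adjusted p = 2.95e-05), and was at 0.58 without replicate 1, not called. Nr4a2, an orphan nuclear receptor induced by antigen receptor signals, averaged below 50 in spleen and so fell outside the rule. It was at 228, 177, 424 and 411 in kidney and 52.1, 26.7, 36.4 and 41.1 in spleen (7.45-fold, adjusted p = 0.00123). Its relative Nr4a1 met the rule and did not pass, at 766, 160.3, 195 and 321 against 176, 200.1, 64.6 and 74.5 (log2 fold change 1.37 ± 0.47, adjusted p = 0.199). Nr4a1 was called without kidney CD4+ replicate 2 (1.91, adjusted p = 0.00253). Of 20 AP-1, EGR and NR4A factors expressed in both organs limma called 0 (5 at an unadjusted p below 0.05) and edgeR 0, whereas DESeq2 called 2 higher and 1 lower.

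Some genes of lymphoid recirculation fell. Of 33 expressed in both organs 7 fell, 1 rose and 25 did not pass, with a median log2 fold change of -1.03. Among all 5838 genes 0.394% were called lower and 1.22% higher. There were 9 falls without kidney CD4+ replicate 2, 17 without replicate 1 and, with DESeq2, 11. Tcf7, which marks naive and memory cells, was at 1002, 587, 337 and 475 in kidney and 1305, 1471, 1764 and 2058 in spleen (2.93-fold lower, adjusted p = 0.0313). Dapl1, a gene of resting T cells, was at 34.5, 107, 43.3 and 59.4 in kidney and 149, 210.5, 1331 and 1362 in spleen (8.64-fold lower, adjusted p = 0.0207). Its spleen CD8+ levels were several times its spleen CD4+ levels, and without kidney CD4+ replicate 2 the log2 fold change of Dapl1 moved from -3.11 to -3.75. Further falls were Actn1, Slamf6, Fam65b and Klrg1, at 3.56-fold, 3.21-fold, 2.74-fold and 2.40-fold lower. For Actn1, Slamf6 and Klrg1 the organs overlapped across cell types although not within either. The member that rose was Klre1, a killer lectin-like receptor, at 57.1, 71.8, 470.2 and 505 in kidney and 16.6, 22.4, 199 and 209 in spleen (2.76-fold, adjusted p = 0.0240). Its reads may be shared with close copies of that family. The genes Tcf7, Actn1, Slamf6, Fam65b, Klrg1 and Klre1 lost the call without any 1 of the 6 kidney CD8+ and spleen libraries, and Dapl1 without 5 of them, all but spleen CD4+ replicate 1. S1pr1, a receptor for exit from tissue, did not pass with all libraries. It was at 999, 331, 102 and 143 in kidney and 729, 739, 731 and 942 in spleen (log2 fold change -1.56 ± 0.51, adjusted p = 0.172), and kidney CD4+ replicate 1 was above all 4 spleen libraries. Klf2, a transcription factor that drives S1pr1, stood at a log2 difference of -0.82 ± 0.47 (adjusted p = 0.454). Without kidney CD4+ replicate 2, its highest kidney value, Klf2 was called lower (-1.41, adjusted p = 6.53e-04), and S1pr1 was called lower without replicate 1 (-2.12, adjusted p = 0.00548).

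**Figure D3:**
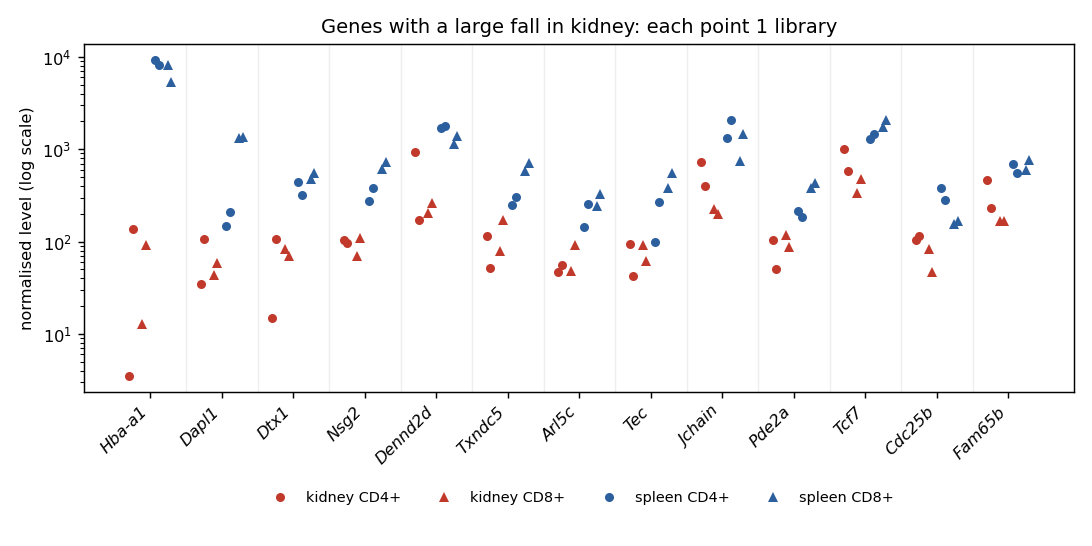
Normalised level (log scale) in each of the 8 libraries for 13 of the 14 genes with the largest fall in kidney among called genes whose organs did not overlap. Red symbols are kidney and blue symbols spleen libraries, circles CD4+ and triangles CD8+ cells. Hba-a1 shows the widest gap between organs.

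Falls outside the gene lists were of single genes, among them a regulator of Notch signalling, a kinase of antigen receptor signalling and an isomerase of the secretory pathway. Dtx1, a regulator of Notch signalling, was at 14.8, 106, 82.3 and 70.1 in kidney and 444, 316, 479 and 548 in spleen (7.80-fold lower, adjusted p = 0.00947). Its call was lost without spleen CD4+ replicate 1 (adjusted p = 0.0503), and its log2 fold change moved from -2.96 to -2.37 without kidney CD4+ replicate 1. Nsg2, a vesicle protein best known from neurons, was at 105, 95.7, 70.5 and 109 in kidney and 273, 378, 615 and 731 in spleen (4.91-fold lower, adjusted p = 0.00346). Its kidney values were close together and all below the spleen ones. Tec, a kinase of antigen receptor signalling, fell 3.94-fold (adjusted p = 0.0422). Of 31 listed genes of the T cell receptor complex and its kinases 1 rose, 0 fell and 30 did not pass. Their median log2 fold change was 0.23. The Tec values nearly met, with 98.1 in spleen CD4+ replicate 1 against 93.7 in kidney CD4+ replicate 1, and the call was lost without 5 of the 6 kidney CD8+ and spleen libraries, all but that spleen library. Txndc5, a disulfide isomerase of the secretory pathway, fell 4.37-fold (adjusted p = 0.00923), Dennd2d, an exchange factor for Rab proteins, 4.85-fold (adjusted p = 0.0183), and Arl5c, a small GTPase, 3.94-fold (adjusted p = 0.0101). Cdc25b, a phosphatase that starts mitosis, fell 2.74-fold (adjusted p = 0.0269). When 1 library was left out, the call was lost for Txndc5 without spleen CD8+ replicate 2, for Arl5c without replicate 2 of either spleen group, for Cdc25b without any of the 6 but kidney CD8+ replicate 1, and for Dennd2d without any of the 6.

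Some ligands and receptors of the tumour necrosis factor family were among the rises. Tnfsf9, the ligand of 4-1BB (chromosome 17, 57244808 to 57247180, plus strand, mm9), was at 515, 880.3, 550.0 and 685 in kidney and 73.7, 110.4, 35.7 and 47.7 in spleen (10.4-fold, log2 fold change 3.37 ± 0.34, adjusted p = 3.17e-04). All 4 kidney values were more than 4 times the highest spleen value. A further 4 members of the family were called and are named after their values were seen. The family was not one of the gene lists, so the members that did not pass were not counted. Tnfrsf1b, a receptor for tumour necrosis factor, was at 2228, 1126, 1116 and 906 in kidney and 749, 440.0, 214 and 174 in spleen (3.78-fold, adjusted p = 0.00852). Tnfrsf4, which encodes OX40, was at 17913, 22169, 321 and 244 in kidney and 9376, 10354, 62.6 and 81.2 in spleen (2.80-fold, adjusted p = 0.0129). It was far higher in CD4+ than in CD8+ cells of either organ. Tnfsf10, the death ligand TRAIL, and Tnf itself rose 3.40-fold and 2.86-fold (adjusted p = 0.0153 and 0.0313). Tnfrsf1b kept its call whichever library was left out, Tnfrsf4 lost it without any 1 of the kidney CD8+ and spleen CD8+ libraries, Tnfsf10 without either kidney CD8+ library or replicate 2 of either spleen group, and Tnf without any 1 of the 6.

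Of 24 cytotoxic effector genes expressed in both organs 5 rose, 0 fell and 19 did not pass, with a median log2 fold change of 0.37, and 9 rose and 1 fell without either 1 of the kidney CD4+ libraries. The 5 were Ctsw, Tnfsf10, Klrc1, Klrk1 and Tnf. Ctsw, a cathepsin of killer cells, was at 8213, 10741, 22841 and 26872 in kidney and 2057, 2813, 11577 and 11644 in spleen (2.89-fold, adjusted p = 0.0139). Klrc1, the inhibitory receptor NKG2A, was at 526, 284, 5903 and 5835 in kidney and 157, 189.8, 2201 and 2276 in spleen (2.42-fold, adjusted p = 0.0207). Both genes were higher in kidney within each cell type, and in CD8+ than in CD4+ cells. Ifng, which encodes interferon gamma, did not overlap between organs, at 4545, 5586, 13296 and 9958 against 3275, 3582, 4023 and 3522, but did not pass (log2 fold change 1.08 ± 0.29, adjusted p = 0.0809). Ifng was called higher without kidney CD4+ replicate 2 (1.13, adjusted p = 0.0278) and without replicate 1 (1.25, adjusted p = 0.0116). Prf1, which encodes perforin, was at 635, 69.7, 566 and 1176 in kidney and 602, 609.9, 1238 and 2048 in spleen (log2 fold change -1.24 ± 0.58, adjusted p = 0.361). Prf1 was called lower without kidney CD4+ replicate 1 (-1.82, adjusted p = 0.0331), and was at -0.55 without replicate 2, not called. Without 1 library, Ctsw lost its call in 4 of 8 fits (kidney CD8+ replicate 2, either spleen CD4+ library or spleen CD8+ replicate 1 left out), and Klrc1 and Klrk1 lost it without any 1 of the 6. In markers of natural killer cells, which share Klrk1 with this list, the summed level over 9 genes was 2174 to 11768 in kidney and 1603 to 11746 in spleen.

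The TGF-beta response list had 2 rises among 17 genes expressed in both organs, 0 falls and a median log2 fold change of 0.60, with 5 rises and 0 falls without kidney CD4+ replicate 2 and 3 rises and 1 fall without replicate 1. Pmepa1, a feedback inhibitor of TGF-beta signalling, was at 142, 131, 407 and 234 in kidney and 56.0, 47.4, 59.9 and 76.4 in spleen (3.43-fold, adjusted p = 0.0153). Ldlrad4, another feedback inhibitor of the pathway, was at 564, 721, 705 and 920.4 in kidney and 360.2, 342, 210.1 and 161 in spleen (2.81-fold, adjusted p = 0.0264). Both genes separated the organs in every library, but Pmepa1 lost its call without kidney CD8+ replicate 2, spleen CD4+ replicate 2 or either spleen CD8+ library, and Ldlrad4 as given above. Skil, a transcriptional partner of the SMAD proteins, stood at a log2 difference of 1.19 ± 0.32 (adjusted p = 0.0927). Among S100, annexin and galectin genes 2 of 19 rose, S100a4 and Lgals3. Lgals3, which encodes galectin-3, was at 1159, 1636, 3221 and 2387 in kidney and 619, 633, 733 and 902 in spleen (2.74-fold, adjusted p = 0.00976), and lost its call without either spleen CD8+ library.

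Stress proteins and antioxidants held 4 of the rises, 2 of 23 chaperone genes and 2 of 17 antioxidant genes, against 1.22% of all genes expressed in both organs. Hspa1b, an inducible chaperone of the Hsp70 family, had the largest rise, 30.2-fold, and a wide spread within both organs: 513, 2453, 954 and 2158 in kidney and 18.3, 138, 7.41 and 138 in spleen (log2 fold change 4.92 ± 0.92, adjusted p = 0.0143). Replicate 1 was below replicate 2 in all 4 groups, by the most in spleen, and the same order held in all 4 groups for Dnajb1, given below. The log2 fold change of Hspa1b was 4.01 without spleen CD8+ replicate 1, 5.63 without spleen CD8+ replicate 2 and 5.58 without spleen CD4+ replicate 2. Its call was lost without either kidney CD8+ library or spleen CD4+ replicate 1, and its reads may be shared with the near-identical gene Hspa1a. Dnajb1, a partner of Hsp70, was at 808, 842, 379 and 873 in kidney and 187, 232, 85.5 and 289 in spleen (3.79-fold, adjusted p = 0.0271). These were 2 of 23 chaperone genes, whose median log2 fold change was -0.01. Of 17 antioxidant genes 2 rose, Prdx5, a peroxiredoxin, at 3.03-fold (adjusted p = 0.0401) and Fth1, the heavy chain of ferritin, at 2.43-fold (adjusted p = 0.0409). Prdx6 stood at a log2 difference of 0.93 ± 0.22 (adjusted p = 0.0520), and was called without either kidney CD4+ library (adjusted p = 0.00620 and 0.00912). Dnajb1 lost its call without kidney CD8+ replicate 2, either spleen CD4+ library or spleen CD8+ replicate 1, and Prdx5 and Fth1 without any 1 of the 6.

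Ribosomal protein and oxidative phosphorylation genes gave 0 calls with all 8 libraries, in a test that recovered 8% of simulated 2-fold rises. Falls of 2-fold were not simulated. Of 73 cytosolic ribosomal protein genes 0 were called by limma (0 at an unadjusted p below 0.05), 0 by edgeR and 0 by DESeq2, and their median log2 fold change was -0.18. Without kidney CD4+ replicate 2 limma called 4 of them lower, and 44 of the 73 had an unadjusted p below 0.05. Rps29, the ribosomal protein gene with the smallest adjusted p, stood at a log2 difference of -0.59 ± 0.30 (adjusted p = 0.398). Of 41 genes of oxidative phosphorylation limma called 0 (2 at an unadjusted p below 0.05), edgeR 0 and DESeq2 0, with a median of 0.29. When kidney CD4+ replicate 1 was left out limma called 6 of these higher and 3 lower, and 29 had an unadjusted p below 0.05. The median was -0.42 for 28 interferon-stimulated genes, 0.06 for 18 cell cycle genes and -0.06 for 17 genes of NF-kappaB and its feedback. The interferon list had 1 rise, Isg20, an RNA exonuclease that also counts among the residency genes, at 1701, 3744, 3995 and 3114 in kidney and 1360, 1274, 644 and 599 in spleen (3.30-fold, adjusted p = 0.0309). Usp18, a feedback inhibitor of interferon signalling, pointed the other way at 604, 45.8, 397 and 666 against 778, 768, 1683 and 1978, and did not pass (log2 fold change -2.01 ± 0.63, adjusted p = 0.151). Usp18 was called lower without kidney CD4+ replicate 2 (-1.24, adjusted p = 0.0491) and without replicate 1 (-2.71, adjusted p = 0.00462). Among 14 chemokine receptors and egress genes 1 rose and 1 fell. Ccr2, a receptor for the chemokine CCL2, rose, at 1123, 781, 1064 and 994 in kidney and 500.5, 405, 439.7 and 593 in spleen (2.05-fold, adjusted p = 0.0452). Ccr2, like Isg20, lost its call without any 1 of the 6 kidney CD8+ and spleen libraries. This last list had 6 rises and 1 fall without kidney CD4+ replicate 2, 2 rises and 5 falls without replicate 1, and 1 rise and 3 falls in CD8+ libraries alone. Of 15 inhibitory receptors 0 were called by limma (4 at an unadjusted p below 0.05) and 0 by edgeR, but DESeq2 called 2, 5 rose without kidney CD4+ replicate 2, and 1 rose and 1 fell without replicate 1.

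**Figure D4:**
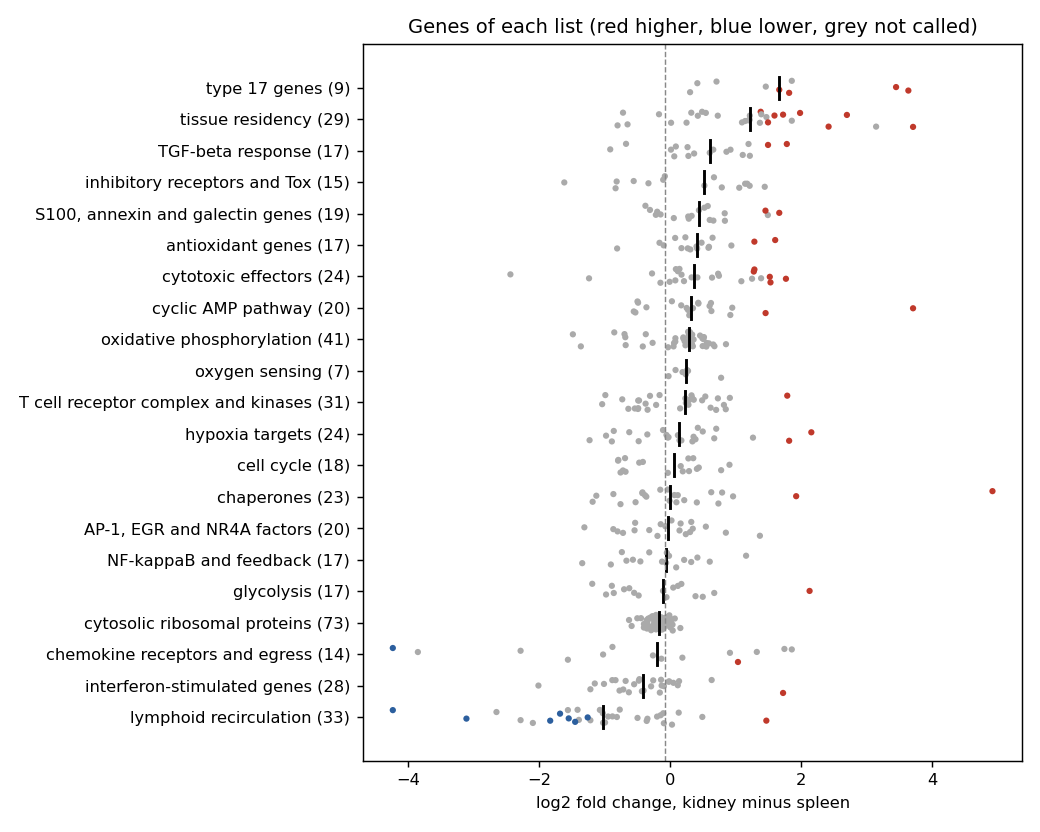
Log2 fold change (kidney minus spleen) of each gene expressed in both organs, by gene list, with the number of genes in brackets. Black bars are list medians, the dashed line is the median of all 5838 genes (-0.08), and red and blue points are genes called higher and lower. Lists run from type 17 genes (median 1.66) at the top to lymphoid recirculation (-1.03) at the bottom.

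Examples of little difference were Eif2s2, a translation initiation factor subunit, Ociad1, Chmp5 and Smap2. Eif2s2 was at 1331, 1422, 1627 and 1401 in kidney and 1386, 1449, 1626 and 1571 in spleen, with a log2 fold change of -0.06 and a 95% interval of -0.53 to 0.40. Ptprc, which encodes the pan-leukocyte protein CD45, had 0.15 with an interval of -0.34 to 0.64. For Cd44, the protein used in the sort, the values were 1563, 1011, 352 and 429 in kidney and 637, 586, 182 and 282 in spleen (log2 fold change 0.91 ± 0.26, adjusted p = 0.119). Cd44 was called higher without kidney CD4+ replicate 2 (1.01, adjusted p = 0.0374).

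Expression in both organs did not keep out markers of other cells. Of the 71 higher genes 9 and of the 23 lower genes 3 stood on lists of markers of other cells, which left 62 and 20. C1qb, a complement subunit made by macrophages, was at 2036, 2256, 429 and 356 in kidney and 216, 289.9, 33.0 and 73.5 in spleen (8.16-fold, adjusted p = 3.09e-04). Fcer1g and Tyrobp, adaptors of myeloid and natural killer cell receptors, rose 6.80-fold (adjusted p = 0.00391) and 3.29-fold (adjusted p = 0.0130). Of 10 macrophage markers expressed in both organs 3 rose and 7 did not pass. Of these 10, 6 had a log2 fold change above 0, and the median was 0.25. Of 5 natural killer cell markers 2 rose and 3 did not pass, with 2 above 0 and a median of -0.01. The class II genes H2-Eb1, H2-Aa and H2-Ab1, which present antigen on dendritic cells, macrophages and B cells, rose 5.09-fold, 3.49-fold and 4.13-fold (adjusted p = 0.00130, 0.0249 and 0.0348). They were the 3 rises among 7 dendritic cell markers expressed in both organs. The other 4 did not pass, and the median log2 fold change of the 7 was 1.03. H2-Ab1 overlapped between organs, with 544 in kidney CD8+ replicate 2 and 553 in spleen CD4+ replicate 1. The summed level of 23 macrophage markers was 6095 to 28356 in kidney and 4819 to 12873 in spleen, so it overlapped, and that of 12 dendritic cell markers was 7742 to 31147 against 5738 to 8942. In both lists the 2 kidney CD4+ libraries were the highest, as they were for C1qb and the class II genes. Tyrobp lost its call without spleen CD4+ replicate 2 or spleen CD8+ replicate 1, and H2-Aa and H2-Ab1 without kidney CD8+ replicate 1, either spleen CD4+ library or spleen CD8+ replicate 1. Hba-a1, an alpha globin gene of red cells, had the largest fall, from 9311, 8189, 8231 and 5402 in spleen to 3.52, 137, 12.7 and 91.0 in kidney (256-fold lower, adjusted p = 8.53e-04). It met the rule through 2 kidney libraries, both numbered 2, and the log2 fold change of Hba-a1 ranged from -8.90 to -6.92 when 1 kidney library was left out. The summed level of 13 erythroid markers was 658 to 1841 in kidney and 13659 to 25919 in spleen. Jchain, the joining chain of antibodies made by plasma cells, fell 3.88-fold (adjusted p = 0.00780), and the 7 plasma cell markers, Jchain included, summed to 633 to 1477 in kidney and 991 to 2482 in spleen. The other 3 of these markers expressed in both organs pointed the other way and did not pass: Irf4, Prdm1 and Xbp1, with log2 fold changes of 1.46, 1.09 and 0.82. Cd79b, a B cell receptor subunit that fell 2.41-fold (adjusted p = 0.0462), lost its call without any 1 of the 6 kidney CD8+ and spleen libraries, and 7 B cell markers summed to 201 to 247 in kidney and 401 to 1013 in spleen. Napsa, a protease of tubules, and Car2, listed for red cells but also made in tubules, were at 294, 639, 338 and 885 and at 636, 415, 721 and 1660 in kidney, against 169, 148, 36.4 and 117 and 312, 198, 156 and 125 in spleen (adjusted p = 0.0422 and 0.0351). They lost the call in 7 and 5 of the 8 fits that left out 1 library. The part of RNA from other cells in these differences was not tested.

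Enzymes of sugar, amino acid and fatty acid breakdown, abundant in liver and renal tubules, formed a further set among the rises. It was put together after the values were seen and gets no test as a set. Rida, a deaminase of reactive imines, was at 1418, 8493, 1831 and 3781 in kidney and 239, 299, 292 and 279.8 in spleen (10.9-fold, adjusted p = 0.00287). Sord, sorbitol dehydrogenase, was at 702, 451, 268 and 717 in kidney and 96.4, 67.3, 50.5 and 84.0 in spleen (6.77-fold, adjusted p = 0.00211). Fah, the last enzyme of tyrosine breakdown, was at 359, 631, 218 and 506 in kidney and 94.2, 161, 16.8 and 43.9 in spleen (6.72-fold, adjusted p = 0.0112). Khk, ketohexokinase, Pecr, an enzyme of peroxisomal lipid metabolism, and the hydrolase Bphl rose 4.44-fold, 4.15-fold and 3.55-fold. Rida was highest in kidney CD4+ replicate 2 and next in kidney CD8+ replicate 2, the libraries with summed proximal tubule markers of 25337 and 32685, against 12785 and 8774 in the other kidney libraries. The same 2 libraries were the highest for Fah, Khk, Pecr and Bphl, in the same order. Of the enzymes named here only Sord did not follow that order, being lower in kidney CD4+ replicate 2 than in replicate 1. The part of tubule RNA was not tested.

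Among called genes on none of these lists, several encode regulators of transcription, signalling and cell survival. Dkkl1, a relative of the Dickkopf proteins, was at 459, 1168, 473 and 461 in kidney and 201, 259.7, 79.5 and 45.8 in spleen (4.94-fold, adjusted p = 0.00869). Gabpb1, a subunit of the transcription factor GABP, was at 312, 341, 195 and 278 in kidney and 83.1, 82.8, 39.7 and 55.4 in spleen (4.36-fold, adjusted p = 0.00236). Dusp2, a phosphatase of activated MAP kinases, was at 815, 846, 2592 and 1294 in kidney and 233, 284, 498 and 455 in spleen (3.52-fold, adjusted p = 0.00371). Odc1, which makes polyamines, rose 3.07-fold (adjusted p = 0.00912), and Bcl2l11, which encodes the death protein BIM, 2.74-fold (adjusted p = 0.0312), as did Bcl2a1d, whose reads may be shared with Bcl2a1a. Gabpb1, Dusp2 and Odc1 separated the organs without overlap, and they are named after their values were seen, as are Bcl2l11 and Bcl2a1d, which lost the call without any 1 of the 6 kidney CD8+ and spleen libraries.

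All 71 higher and all 23 lower genes pointed the same way in both cell types when these were read separately, and 61 and 18 of them differed at least 2-fold in each. A shared direction follows in part from the call, which averages both cell types. The test of a difference in organ effect between CD8+ and CD4+ cells called 0 of the 5838 genes with limma (109, or 1.87%, at an unadjusted p below 0.05, against 3.34% of all genes tested) and 0 with edgeR, but 8 without kidney CD4+ replicate 2 and 704 without replicate 1. Crem had log2 fold changes of 3.37 in CD4+ and 4.04 in CD8+ cells and Hilpda 2.12 and 2.18, whereas Dapl1 had -1.52 and -4.70 and Litaf 1.52 and 3.87.

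**Figure D5:**
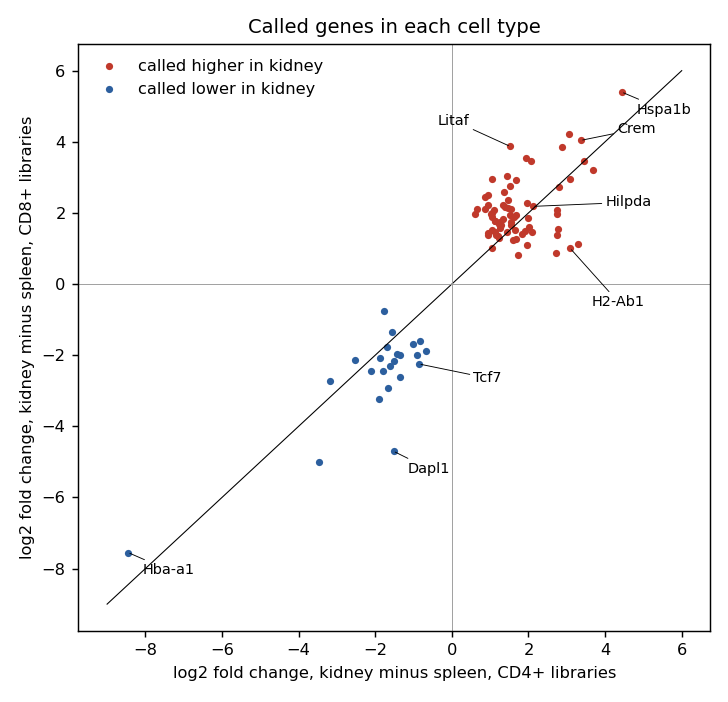
Log2 fold change (kidney minus spleen) in CD4+ libraries (x axis) against that in CD8+ libraries (y axis) for the 94 called genes, with the line of equality. Red points are genes called higher and blue points genes called lower, and each lies in the quadrant of its call.

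Beyond the called genes, the kidney and spleen values of 236 genes expressed in both organs did not overlap with kidney above (4.04%), and those of 193 did not with kidney below (3.31%), against 5.84% and 3.60% of all genes tested. Of the called genes 57 higher and 17 lower were of this kind. The median transcript length was 1074.5 nt over 66 genes called higher with a gene model, against 1414 nt over 21 called lower. It was 1473.5 nt over the 5403 genes expressed in both organs with a gene model, called genes included. The difference in length was not tested. Levels of 154 genes were under 10 in at least 1 library, most often in kidney CD8+ replicate 1 (63 genes) and kidney CD4+ replicate 2 (57). At the threshold itself, called genes with the lowest organ means included Mxd1, Tmem176a and Pmepa1, and the genes that just missed it were Gnpat, Tmf1, Vps51 and Tmem159. Mxd1, a partner of MAX, was at 273, 149, 113 and 109 in kidney and 79.3, 60.4, 29.6 and 35.3 in spleen. Tmem159, a lipid droplet protein just outside, was at 148, 69.7, 159 and 126 in kidney and 89.8, 36.2, 31.6 and 42.0 in spleen, and was called without kidney CD4+ replicate 2 (adjusted p = 0.0449).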

How the data were processed

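RNA of sorted T cells was made into libraries with a SMART-Seq v4 low-input kit, per the labels' protocols. That kit does not mark strand, so overlapping genes on opposite strands cannot be told apart. Per the submitters' processing notes the build was mm9 and the tools included STAR 2.5.3 and TopHat2 2.1.0. How genes were counted is not stated in the sources at hand. The values are a normalised signal deposited by the authors in 1 table, that is, read counts divided by a size factor, and all 8 columns were used. Dividing each library by its smallest step gave whole reads for 100% of values (tolerance 1e-06), and 1 read was worth a level of 0.554 to 1.04.

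Groups followed the sample titles. A gene entered the tests if 2 or more libraries reached a level of 10. Tests used limma 3.58.1 in R 4.3.3 on log2(level + 1), with organ and cell type as terms, an intensity trend, 5 residual degrees of freedom (10.2 with those borrowed across genes) and 2-sided p-values. Fold changes on this scale understate those of low genes. The difference between cell types was tested on the means of the 4 groups. Count tests on the recovered reads (edgeR 4.0.16, DESeq2 1.42.0), other scalings, filters and fits, and fits without each library were alternatives.

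The genes, lists and tests were chosen with earlier results of these data known. Named genes were the 14 largest rises and 14 largest falls among called genes without overlap, up to 3 genes per list by adjusted p, a fixed set, 5 proposed markers, genes at the threshold and genes of little difference, leaving out numbered gene models, histone and receptor segments. A few genes chosen by this rule are not reported here. Positions came from a GENCODE annotation of the same build, which held 12069 of the 13341 symbols. Promoter sequences came from RefSeq.

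On simulated reads, with 50 genes at each fold, the organ test over 10845 genes called 8% of genes changed 2-fold, 56% at 4-fold, 98% at 8-fold and 96% at 16-fold, and 3.73% of its calls were false. All simulated 2-fold and 8-fold changes were rises and all 4-fold and 16-fold changes were falls, so fold and direction cannot be told apart. The simulation assumed 1 spread per gene, whereas the kidney CD4+ libraries spread more. Reads without molecular identifiers are not independent molecules.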

Additional observations from a re-analysis of the deposited data

How the results depend on the processing

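The main counts were 71 genes higher and 23 lower in kidney. Library weights moved them to 375 and 292, DESeq2 to 176 and 77, and CD4+ libraries alone, tested with limma, to 0 and 0 (92 genes at an unadjusted p below 0.05). Leaving out 1 library gave 22 to 265 higher and 6 to 449 lower genes. A mean level of at least 200 in each organ gave 34 and 12, an adjusted p below 0.01 gave 20 and 7, a mean level of at least 100 gave 15 lower genes, and no filter on low values gave 13 lower genes. With CD8+ libraries alone the counts were 54 and 31, and outside the marker lists of other cells, an alternative chosen after seeing the data, 62 and 20. Counts under other pseudocounts, TMM or median-of-ratios scaling, edgeR, the length trend removed and the averaged fit of 4 groups were within 1.5 times the main ones. For the test between cell types, which called 0 genes, leaving out 1 library gave 0 to 704. Of the 71 and 23 genes DESeq2 called 71 and 23, and edgeR 64 and 20. Among 110 named genes 0 changed sign past the threshold under any of the 23 refits. The cause of each change was not tested, beyond fewer libraries or genes where the alternative removes them.

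The labels do not say that replicate numbers mark shared mice. Differences between replicates 1 and 2 correlated at -0.32 to 0.17 over the 6 pairs of groups, and at 0.17 (CD4+) and 0.12 (CD8+) between kidney and spleen of a cell type, so whether the numbers pair the samples is not known. With the number as a replicate block 59 genes were higher and 15 lower, and with the block within cell type 75 and 28.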
